A study of Caenorhabditis elegans with 2 samples.

Results

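Peaks of ZTF-1, a zinc finger protein read through an eGFP tag, were described at 3 genes, the calmodulin gene cmd-1 and the 14-3-3 genes ftt-2 and par-5, out of 19973 protein-coding genes on the 6 nuclear chromosomes. The genes were picked by name after strong peaks near cmd-1 and ftt-2 had been seen in the deposited lists, so they were chosen by the same signals that are given below, and the signals are given as a description with no test. For each gene, all entries of the 8 deposited peak lists with a summit within 5 kb of the gene model were collected. Chromatin immunoprecipitation with an anti-GFP antibody was carried out on whole L2 larvae of Caenorhabditis elegans strain OP207, aged 28.5 hours and synchronised by L1 starvation after bleaching. Both biological replicates, which form the single group of the study, carried the insertion wgIs207, a fosmid with ztf-1 fused to 2XTY1, eGFP and 3XFLAG, beside an unc-119 marker. The protein was therefore read from a transgene and over all cell types of the animal together. The labels name a possible control experiment, which was not analysed here, and do not say whether the deposited signals were computed against it. The 4 lists were those of replicate 1, of replicate 2, of the comparison of the replicates (the list the authors call conservative) and a further list of the series, called pooled here, each in a ranked and a thresholded form.

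Calmodulin is a small calcium-binding protein that changes shape when calcium rises and then switches on kinases, the phosphatase calcineurin, channels and pumps, and it is made in nearly all animal cells. The 14-3-3 proteins dock on phosphorylated serine or threonine residues of their partners and hold them in place, often in the cytoplasm. In C. elegans, FTT-2 is known for binding the FOXO factor DAF-16 and PAR-5 for polarity of the early embryo. The transcription factor CAMT-1 is known to act through the cmd-1 promoter in worm neurons.

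The sequences under the 4 peaks that matter for these genes are shown first, 5′ to 3′ on the strand of the named gene, on assembly WBcel235 and with 300 bp around each summit. Capitals mark the letters searched on either strand, which overlap one another: the run CGCG, the run CGCGCA, the run AGCGCG, the run CCGCGC and the run TGCGC. The first is the summit region inside the noncoding gene linc-128 upstream of cmd-1 (chrV:1151326-1151625, plus strand), the second the region just upstream of cmd-1 (chrV:1155132-1155431, plus), the third the region upstream of ftt-2 (chrX:11605952-11606251, minus) and the last that upstream of par-5 (chrIV:11821974-11822205, minus), which was stopped at the start of the neighbouring gene M117.3.

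cmd-1 at linc-128: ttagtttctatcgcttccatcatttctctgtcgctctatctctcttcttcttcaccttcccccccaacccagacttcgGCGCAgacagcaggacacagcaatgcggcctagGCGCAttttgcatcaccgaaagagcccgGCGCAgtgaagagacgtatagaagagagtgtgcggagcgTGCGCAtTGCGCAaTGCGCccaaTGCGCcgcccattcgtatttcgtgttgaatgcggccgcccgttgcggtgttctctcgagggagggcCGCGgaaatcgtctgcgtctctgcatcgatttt

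cmd-1 upstream: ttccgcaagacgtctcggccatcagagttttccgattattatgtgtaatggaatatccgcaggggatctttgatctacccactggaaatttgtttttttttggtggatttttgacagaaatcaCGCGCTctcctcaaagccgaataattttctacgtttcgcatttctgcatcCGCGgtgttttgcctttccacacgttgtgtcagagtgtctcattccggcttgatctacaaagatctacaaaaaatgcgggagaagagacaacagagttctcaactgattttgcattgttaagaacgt

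ftt-2 upstream: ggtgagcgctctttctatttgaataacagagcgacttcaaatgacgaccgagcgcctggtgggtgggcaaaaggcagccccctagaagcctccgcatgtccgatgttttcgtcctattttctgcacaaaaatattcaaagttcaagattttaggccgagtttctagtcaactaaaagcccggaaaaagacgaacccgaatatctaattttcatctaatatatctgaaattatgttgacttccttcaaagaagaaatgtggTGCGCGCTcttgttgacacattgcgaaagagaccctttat

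par-5 upstream: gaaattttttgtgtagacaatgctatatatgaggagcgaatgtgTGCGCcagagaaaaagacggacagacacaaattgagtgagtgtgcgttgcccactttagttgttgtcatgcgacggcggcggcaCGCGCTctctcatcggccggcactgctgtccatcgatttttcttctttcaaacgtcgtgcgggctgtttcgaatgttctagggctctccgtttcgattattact

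The windows just upstream of cmd-1, ftt-2 and par-5 held 1 copy of AGCGCG each, in each case reading CGCGCT on the strand of the gene. The linc-128 window, at the strongest of the 4 peaks and also upstream of cmd-1, held 0 copies. In the same windows of 300 bp, AGCGCG was found on either strand at 3.70% of the 87133 ranked entries of the replicate-compared list, which overlap one another, and at 14.5% of its 214 merged thresholded peaks. The copies, with 12 bases to either side and the letters in capitals, read as follows, for cmd-1 at chrV:1155243-1155272, for ftt-2 at chrX:11605972-11606001 and for par-5 at chrIV:11822060-11822089.

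cmd-1: tgacagaaatcaCGCGCTctcctcaaagcc

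ftt-2: agaaatgtggtgCGCGCTcttgttgacaca

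par-5: acggcggcggcaCGCGCTctctcatcggcc

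The cmd-1 copy lay 25 bp from the summit and 1014 bp from the gene's start, the ftt-2 copy 116 bp from the summit and 567 bp from the start, and the par-5 copy 50 bp from the summit and 150 bp from the start. The run shared by the cmd-1 and par-5 windows around these letters was 11 bases long, the longest shared run between any pair of the 4 windows. The remaining pairs shared runs of 8 to 10 bases. In the 300 bp from 250 bp before to 50 bp after a protein-coding start, 4.81% of 19973 genes held AGCGCG, and of the 3 genes only par-5 did. The letters AGCGCG had been chosen with earlier results of these peaks known, so their presence is a description of the sequences and no evidence of a binding site.

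The calmodulin gene cmd-1 had the largest number of thresholded peaks of the 3 genes. It spans 1919 bp on the plus strand of chromosome V (1156271 to 1158189), with 2 annotated transcripts. The replicate-compared thresholded list held 2 peaks within 5 kb. The stronger had its summit at position 1151476, 4795 bp upstream of cmd-1, with a signal of 145.9, a q-value of 0.0189 and an IDR of 3.18e-04. IDR, the irreproducible discovery rate, measures how poorly a peak recurs in the paired lists, and 0.01 is the threshold of the deposited lists. The signal is the authors' own measure of peak strength with no unit stated. By signal this peak was at place 18 of 87133 ranked entries.

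That summit lay inside linc-128, a 2302 bp gene for a long intergenic noncoding RNA on the same strand (1150906 to 1153207), 570 bp from its start. The gene linc-128 ends 3063 bp before cmd-1 begins. Of 194 annotated lincRNA genes, linc-128 was the only one with a summit of the thresholded replicate-compared list inside it, and 7 had such a summit within 5 kb. The lists do not assign the peak to cmd-1 or to linc-128. Further along linc-128, at its end, the ranked list held only a weak entry with a signal of 34.1.

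The second cmd-1 peak had its summit at position 1155282, 989 bp upstream of the gene and 3806 bp from the linc-128 summit, in intergenic sequence 2075 bp beyond the end of linc-128. Its signal was 100.97, which gave place 99 among ranked entries. Its q-value was 0.259 and its IDR 0.00757, close to the threshold, and it was absent from the pooled thresholded list, where its IDR was 0.0103. An overlapping entry 779 bp upstream of cmd-1 had a signal of 64.97. Its paired signals were far apart, 54.1 in the first and 8.98 in the second. Past the gene, the strongest entry had its summit in an intron of the convergent neighbour T21H3.5, with a signal of 65.3. Within cmd-1 itself the 4 entries were weak. An entry in an intron had a signal of 19.5, and 3 entries in the 3′ UTR had 38.4, 4.06 and 3.03.

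The 14-3-3 gene ftt-2 had a single thresholded peak, nearly as strong as the one at linc-128. The gene spans 1712 bp on the minus strand of chromosome X (11603708 to 11605419). Its summit lay at position 11606102, 683 bp upstream of the start, with a signal of 144.4, a q-value of 0.0189 and an IDR of 1.41e-04. It was at place 19 by signal and at place 9 by IDR. The interval overlapped 2 short noncoding RNA genes, F52D10.9, 27 bp from the summit, and F52D10.7, 113 bp from it, both on the strand of ftt-2. An adjoining entry 889 bp upstream had a signal of 47.4. It was paired in the first list with the same peak as the strong entry, 70.2, and in the second with one of 22.6.

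Inside ftt-2 the strongest entry had a signal of 63.2, at place 2527. Its summit, 918 bp from the start, lay in coding sequence of an exon that 1 of the 2 annotated transcripts uses and the other replaces. The paired signals were 26.7 and 34.3, and its IDR was 0.124, so it passed neither threshold. A further 3 entries lay inside the gene, with signals of 29.0, 24.6 and 10.5.

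The paralog par-5 had no entry in any of the 4 thresholded lists. It spans 1419 bp on the minus strand of chromosome IV (11820506 to 11821924). Its strongest entry had the summit at position 11822124, 200 bp upstream of the start, with a signal of 80.2, a q-value of 0.639 and an IDR of 0.0431. It was at place 517 by signal. The summit fell inside the noncoding RNA genes M117.11 and M117.12 and 82 bp upstream of M117.3, a protein-coding gene that runs the other way, so it lies in the stretch of 281 bp that divides par-5 from M117.3. The entry itself is longer and overlaps both genes. Within par-5 there were 2 entries, with signals of 25.25 in coding sequence and 22.9 in the 3′ UTR. The next strongest entries within 5 kb, 59.2 and 54.9, lay in an intron of the downstream neighbour M117.1.

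**Figure D1:**
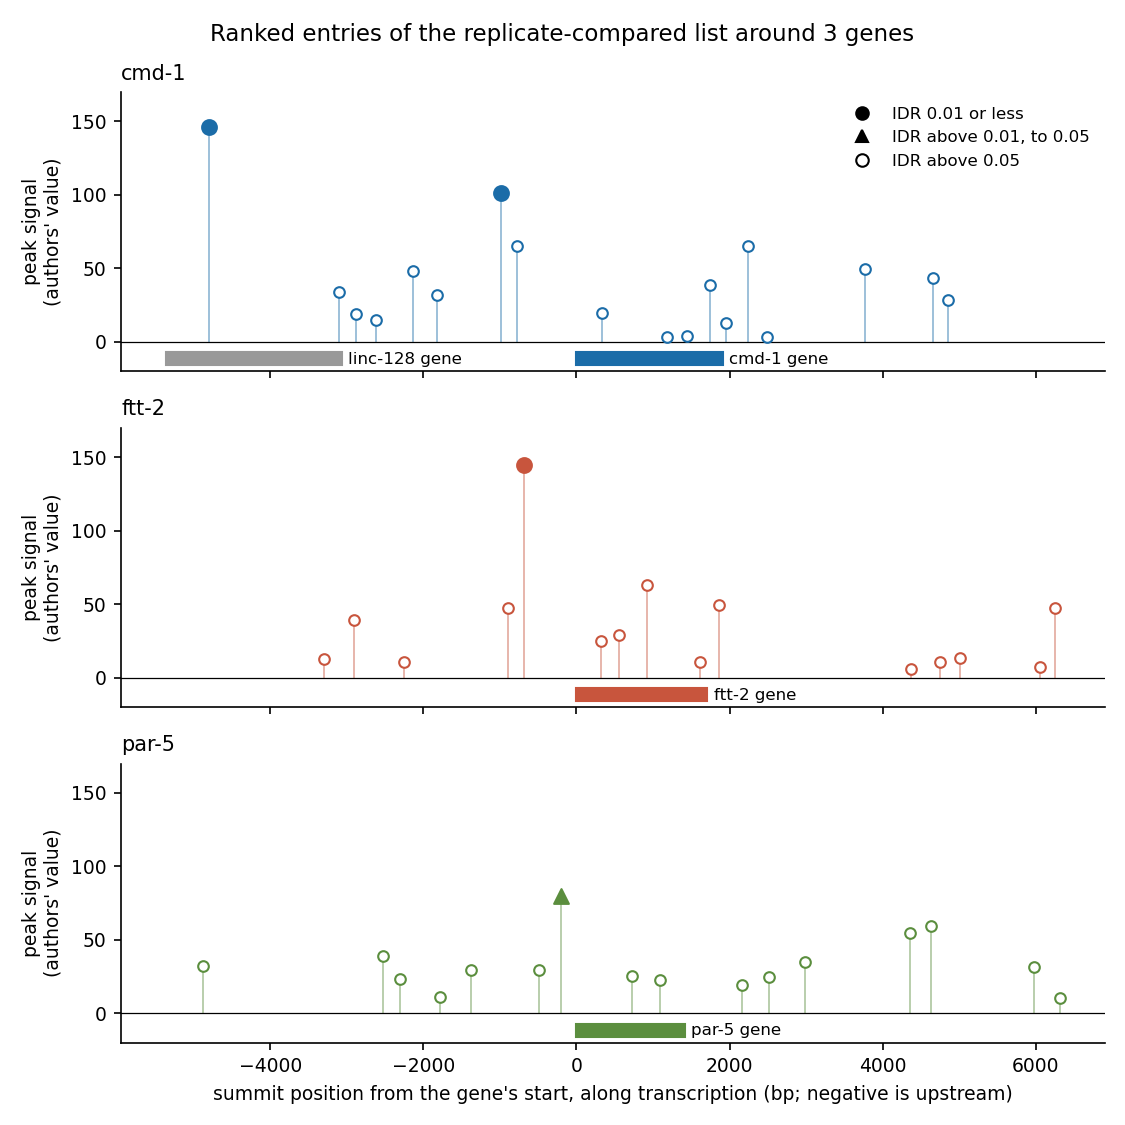
Signal of every ranked entry of the replicate-compared list within 5 kb of cmd-1, ftt-2 and par-5 (vertical axis, authors' value with no unit) against the position of its summit from the gene's start along transcription (horizontal axis, bp, negative upstream). Filled circles have an IDR of 0.01 or less, the triangle one of 0.05 or less and open circles a higher one, and bars show the genes; the 4 filled symbols all lie upstream of the starts, at signals of 145.9 and 100.97 for cmd-1, 144.4 for ftt-2 and 80.2 for par-5.

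Around all 3 genes the replicate-compared ranked list was dense with weak entries. It held 18 entries at cmd-1, 15 at ftt-2 and 16 at par-5, where the median over all protein-coding genes was 11. Per kb of window this was 1.51, 1.28 and 1.40 entries, against a median of 0.905. The median signal of the entries was 32.9 at cmd-1, 24.6 at ftt-2 and 29.6 at par-5. All were above the 23.2 of the whole ranked list, with ftt-2 nearest to it. In replicate 2's own ranked list par-5 had 3 entries, below the median of 4, while cmd-1 had 15 and ftt-2 had 7. In the replicate-compared list, just inside the threshold was the cmd-1 entry 989 bp upstream, with an IDR of 0.00757. Next by IDR, but well above the threshold of 0.01, were the par-5 entry at 0.0431 and the shoulder of the ftt-2 peak at 0.0582. The cmd-1 entry in T21H3.5 followed at 0.0894.

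In the replicate-compared thresholded list, 2 of the 3 genes had a summit within 5 kb. Among all protein-coding genes the share was 2.74% (547 of 19973), and the members' count cannot be read against it, since they were chosen for these peaks. In the pooled thresholded list the same genes, cmd-1 with the linc-128 peak and ftt-2, had a summit, against 2.09% of all genes. In the list of replicate 1 only the linc-128 peak of cmd-1 was present (0.295% of all genes), and in the list of replicate 2 none of the 3 genes had a summit (0.28% of all genes). At an IDR of 0.05 or less in the replicate-compared ranked list, all 3 genes had a summit, against 11.2% of all genes. The par-5 entry did not reach 0.05 elsewhere, with an IDR of 0.0927 in the pooled list and 0.232 in replicate 2's own list.

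By its strongest entry within 5 kb, cmd-1 was matched or exceeded by 56 of 19973 protein-coding genes, itself included (0.280%), ftt-2 by 57 (0.285%) and par-5 by 1256 (6.29%). The median gene had a strongest entry of 53.4. For cmd-1 the strongest entry was the linc-128 peak, 4795 bp from the gene. Within 2 kb the strongest cmd-1 entry was 100.97, and 0.851% of genes had one as high. The shares within 2 kb were 0.17% for ftt-2 and 3.80% for par-5. Neighbouring genes share peaks, so these places are not independent between genes.

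**Figure D2:**
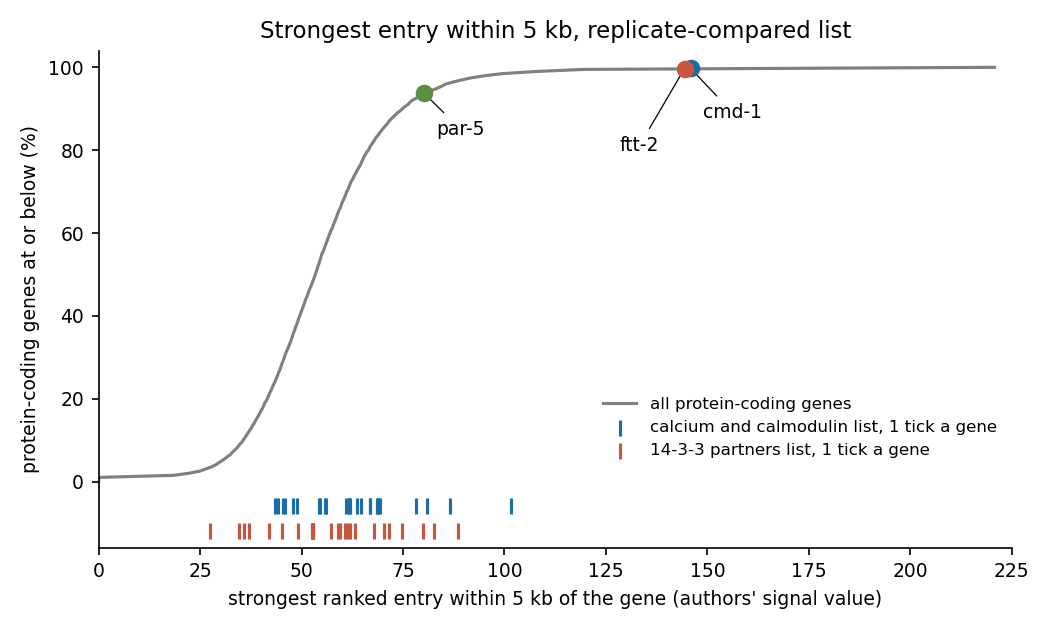
Strongest ranked entry of the replicate-compared list within 5 kb of a gene (horizontal axis, authors' signal value) against the percentage of the 19973 protein-coding genes at or below it (vertical axis). Labelled points are cmd-1 (145.9, the peak inside linc-128), ftt-2 (144.4) and par-5 (80.2). Ticks under the curve are the genes of the calcium and calmodulin list and of the 14-3-3 partner list, which reach 101.5 and 88.5.

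How well the replicates agreed was read from the 2 paired signals of each entry, columns in which the authors list a peak's strength in the first and in the second of the compared lists. Near the 3 genes, 33 of 49 entries had as first interval an entry of replicate 1's own ranked list, with the same signal to 5 decimals. Likewise, 28 of 49 had as second interval an entry of replicate 2's. The match was uneven, at 17 and 17 of 18 entries for cmd-1, 7 and 7 of 15 for ftt-2, and 9 and 4 of 16 for par-5. For 0 of 49 did the first signal occur in replicate 2's list, or the second in replicate 1's. The linc-128 peak had a signal of 83.8 in replicate 1 and 57.7 in replicate 2 (70.7 ± 18.5, SD, n = 2). The cmd-1 peak 989 bp upstream had 52.3 and 39.2 (45.8 ± 9.20, n = 2), again lower in replicate 2.

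The ftt-2 peak went the other way, with 70.2 in replicate 1 and 87.0 in replicate 2 (78.6 ± 11.8, n = 2). At par-5 the paired signals were 28.6 and 56.6, and only the second belonged to an entry of a replicate's own ranked list. The own ranked list of replicate 1 had no entry that overlapped the par-5 peak. Its strongest entry within 5 kb of par-5 was 37.8, at the M117.1 intron. Against the median of all entries, 15.04 in the first and 13.57 in the second signal, the linc-128 peak stood 5.57-fold and 4.25-fold higher, the ftt-2 peak 4.67-fold and 6.41-fold, the nearer cmd-1 peak 3.47-fold and 2.89-fold, and the par-5 peak 1.90-fold and 4.17-fold.

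The order of the peaks was not the same in both replicates. In replicate 1 the linc-128 peak was highest, then ftt-2 and the nearer cmd-1 peak. The par-5 peak had no entry in replicate 1's own ranked list. By first paired signal it was the lowest of the 4, at 28.6. That was place 11447 of 87133 entries, against place 56 by second paired signal. In replicate 2 ftt-2 was highest, then linc-128 and par-5, which were 57.7 and 56.6, and the nearer cmd-1 peak was lowest. The linc-128 and ftt-2 ranges overlapped, so those peaks could not be ordered beyond the spread between the replicates. The paired signals of par-5 and of the nearer cmd-1 peak overlapped as well. The median of all entries differed between the first and the second signal, so these comparisons across replicates also carry a difference in scale.

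**Figure D3:**
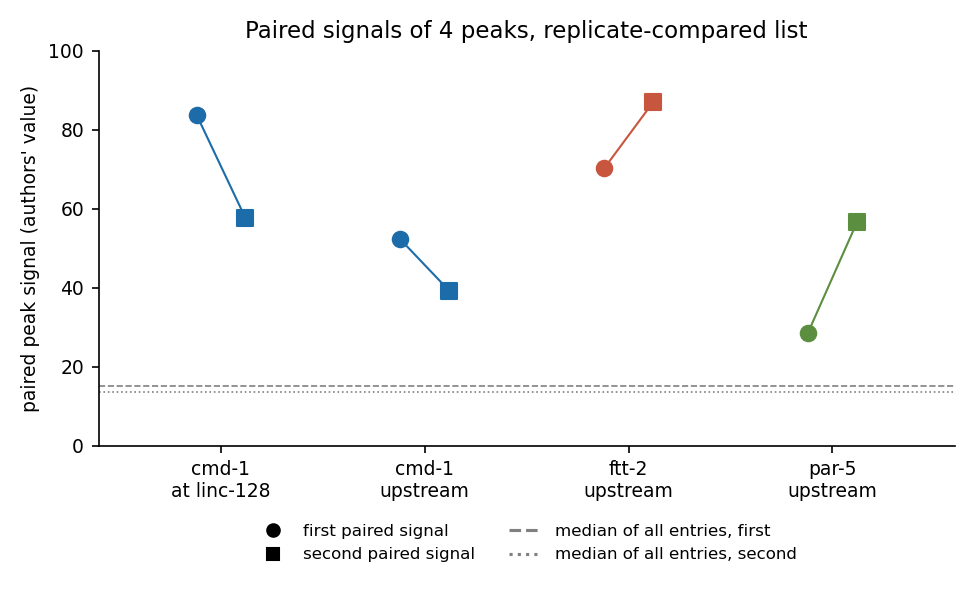
First and second paired signals of 4 peaks in the replicate-compared ranked list (vertical axis, authors' value; circles first, squares second, a line joins the pair), with the medians of all entries, 15.04 and 13.57, as dashed and dotted lines. Both cmd-1 peaks were lower in the second signal, and the ftt-2 and par-5 peaks were higher in it.

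In each replicate's own ranked list, the entry that overlapped a peak most was taken, and at cmd-1 these summits lay close together. The linc-128 summit of replicate 1 was 9 bp and that of replicate 2 was 15 bp from the summit of the replicate-compared list. The nearer cmd-1 summit was 6 bp and 3 bp away. Replicate 1 also had an overlapping entry of slightly higher signal, 54.1 against 52.3, at 777 bp upstream of cmd-1. Replicate 2 had only 8.98 there, at 786 bp. At ftt-2 the summit of that entry was 99 bp away in replicate 1, where 3 entries overlapped the peak, and 21 bp away in replicate 2. Replicate 1 split the peak into nearly equal entries on either side of the joint summit. They had signals of 70.2 at 782 bp and 69.7 at 552 bp upstream of the start. Unlike the joint summit, these summits lay inside noncoding RNA genes, the former in F52D10.9 and the latter in F52D10.7. The linc-128 peak was at place 14 of 49381 entries in replicate 1 and at place 47 of 36348 in replicate 2. The ftt-2 peak was at place 37 and at place 4. In its own list, replicate 2 gave the linc-128 peak an IDR of 0.160. Replicate 1 gave the ftt-2 entry at 782 bp an IDR of 0.0504 and the entry at 552 bp one of 0.0382.

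The paralogs ftt-2 and par-5 were set side by side. Their coding sequences are 744 bp long each and identical at 590 of 741 aligned positions (79.6%), with a longest shared run of 19 bases, and the intervals of their strongest peaks shared no run longer than 10 bases. The strongest signal was 144.4 at ftt-2 and 80.2 at par-5, a ratio of 1.80. The ratio was 2.45 in the first paired signal (70.2 over 28.6) and 1.54 in the second (87.0 over 56.6). The lower ftt-2 signal, 70.2, was above the higher par-5 signal, 56.6, so the paired signals did not overlap, although the first par-5 signal had no counterpart in replicate 1's own list. With 2 replicates an exact permutation test cannot reach 0.05, and the pair was chosen with these peaks known, so no test was made.

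The surroundings of the genes differ in a way that was not used to choose them. The nearest protein-coding gene upstream of cmd-1, cutl-22, lies 9769 bp away, and 4.54% of protein-coding genes have a gap as long. For ftt-2 the next one, F52D10.4, lies 12050 bp away (2.73% as long). For par-5 the gap to M117.3 is 281 bp, and 76.7% of genes have a gap as long, with a median of 936 bp. The summits of the thresholded peaks at cmd-1 and ftt-2 thus lay in long stretches without protein-coding genes, which do hold noncoding ones such as linc-128, and the summit at par-5 lay in a short one.

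Sequence at the summits also differed. In 100 bp around the summit, G and C made up 59.0% at linc-128, 46.0% at the nearer cmd-1 peak, 38.0% at ftt-2 and 56.0% at par-5. The median was 39.0% over ranked entries and 46.0% over the 214 thresholded peaks. Of ranked entries, 1.39% were as rich as the linc-128 summit and 56.4% as rich as that of ftt-2, so the strongest pair of peaks had the highest and the lowest GC content of the 4. At ftt-2 the richest of the 100 bp windows, at 62.0%, was centred 360 bp upstream of the summit.

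The linc-128 window held TGCGC, or its reverse complement, 9 times in 300 bp, counting overlaps. This 5-letter run, picked after the sequence had been read, was found at least once in 16.1% of ranked windows and 32.7% of thresholded ones. Of the ranked windows, 0.0218% held it 9 times or more. TGCGC occurred once in the ftt-2 and in the par-5 window and 0 times in the nearer cmd-1 window. The letters CGCG, which read the same on both strands, were in all 4 windows. They occurred 2 times in the nearer cmd-1 window and once in each of the others. At least 1 copy was in 26.8% of ranked windows and in 47.7% of the 214 thresholded ones. CGCGCA occurred only in the ftt-2 window, overlapping its AGCGCG (4.69% of ranked and 16.4% of thresholded windows). CCGCGC occurred in none of the 4 (4.22% of ranked and 12.15% of thresholded windows).

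**Figure D4:**
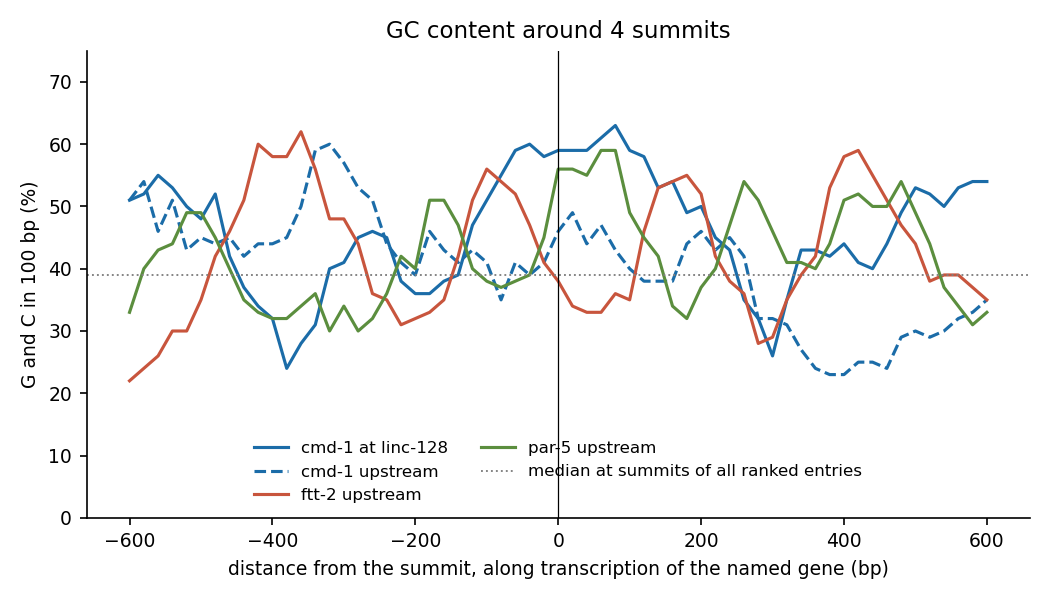
Share of G and C in 100 bp windows (vertical axis, %) against distance from the summit along transcription of the named gene (horizontal axis, bp) for the 4 peaks, with the median at summits of all ranked entries, 39.0%, dotted. The linc-128 and par-5 summits lie in GC-rich stretches (59.0% and 56.0%), and the ftt-2 summit (38.0%) lies in a dip between richer ones.

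Genes that work with calmodulin and with 14-3-3 proteins were counted from lists written with earlier results of these data known. Of 27 calcium and calmodulin genes, 26 were annotated as protein-coding, and 1 of them (3.85%), cal-7, a calmodulin-like gene, had a summit of the replicate-compared thresholded list within 5 kb, where 2.74% of all genes had one. Its signal was 101.5, with paired signals of 47.2 and 52.5 and a q-value of 0.254. The summit lay at -2851 bp from the cal-7 start, in an intron of drap-1, whose start was nearer. None of the other thresholded lists had a summit within 5 kb of cal-7. At an IDR of 0.05 or less 6 of the 26 had a summit (23.1%, against 11.2% of all genes). They were cal-7, unc-68, the ryanodine receptor gene (81.0), the plasma membrane calcium pump genes mca-2 (86.6) and mca-3 (68.5), the calreticulin gene crt-1 (78.2) and the T-type calcium channel gene cca-1 (68.9). The kinase gene unc-43, which encodes CaMKII, had 63.7, the calcineurin genes tax-6 and cnb-1 66.9 and 56.0, and camt-1 61.7 as their strongest ranked entry, none past either threshold.

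Among 26 genes for 14-3-3 partners and polarity proteins, 1 (3.85%), the kinase gene kin-29, had a summit of the replicate-compared thresholded list, 15 bp into its 5′ UTR, with a signal of 88.5 and paired signals of 47.0 and 40.6. The q-value of that peak was 0.481, and kin-29 had no summit in the other thresholded lists. Over all genes the share with a summit was 2.74%. At an IDR of 0.05 or less there were 4 (15.4%, against 11.2% of all genes): kin-29, ksr-2 (79.9), the polarity kinase gene pkc-3 (74.8) and par-1 (61.9). The FOXO gene daf-16, whose product binds 14-3-3 proteins, had a summit only in the pooled thresholded list and a strongest ranked signal of 82.6. The polarity kinase gene par-4 had the lowest value of either list, 27.4. The median of the strongest signals was 61.9 in the calcium and calmodulin list and 58.1 in the 14-3-3 partner list, against 53.4 over all genes. The listed genes were longer, with medians of 8309 bp and 7500 bp against 2027 bp, so their windows were wider, and the part of length in these counts was not tested.

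Thresholded peaks most like those of cmd-1 and ftt-2 were found by the distance between their log2 paired signals, over the 2 replicates. Closest to the linc-128 peak were peaks nearest the starts of C47E8.4 (84.1 and 54.97), pqn-41 (80.4 and 54.1) and acbp-6 (75.6 and 54.7), at distances of 0.07 to 0.17 on the log2 scale. Closest to the nearer cmd-1 peak were those nearest otub-2, srx-108 and daam-1, at 0.01 to 0.02. Closest to the ftt-2 peak were those nearest tos-1 (69.9 and 83.3), W02H3.3 (66.7 and 78.1) and cox-5A (82.2 and 88.1), at 0.06 to 0.23. This likeness is in signal only. The summits farthest from the start of the named gene were at 15482 bp for pqn-41, -8548 bp for daam-1 and 4024 bp for W02H3.3.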

How the data were processed

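The data were 8 peak lists deposited by the authors for 2 biological replicates of 1 group, on assembly ce11 per the text notes deposited beside them. The aligner, the peak caller and the options of both are not stated in the labels or the notes. The deposited signal of a peak is the authors' value with no unit stated. The −log10 q-value deposited by the authors was converted to q, and the −log10 IDR, a score deposited in the ranked lists, to IDR. The paired peak strengths are likewise scores deposited by the authors, with no unit stated. The files have no header, so columns were read by their place in the narrowPeak and IDR formats. The lists hold no counts of reads, so depth is unknown and no counting interval of a signal can be given. Signals were ranked within a list. Where the 2 replicates are set side by side, with a mean and SD or a range, the deposited values were used as they are, although the scale of the lists may differ.

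Entries of the thresholded lists that overlapped by 1 bp or more were merged, keeping the summit of the highest signal, and ranked entries were left unmerged. Gene models came from Ensembl release 115 (WBcel235, the same sequence as ce11) and bases from the RefSeq copy of that assembly, and coordinates are 1-based. A gene had a peak if a summit lay within 5 kb of its extent. Alignment of coding sequences used Biopython 1.88 and all else pandas and NumPy, and the counting was checked on simulated peaks. One calmodulin-like name, cal-6, is not a protein-coding gene of the annotation. The members, lists and letters were chosen with earlier results of these data known. Named were the members, genes at their thresholded summits, listed genes with a summit of the replicate-compared thresholded list, and the 3 peaks most like each thresholded peak. All other listed genes that are named, and TGCGC, were chosen after their values were seen. Alternatives were windows of 2 and 10 kb, an IDR of 0.05 or 0.001, unmerged peaks, interval overlap, the pooled list and each replicate alone.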

Additional observations from a re-analysis of the deposited data

How the results depend on the processing

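Leaving out a replicate meant using the other one's own lists, which have their own IDR. It left 0 to 1 peaks near the 3 genes in place of 3, 0 of the 52 listed genes with a peak in place of 2, and 0.28% to 0.295% of all genes in place of 2.74%. It also moved the share of genes with as strong an entry to 0.23% to 0.631% for cmd-1, 0.0551% to 0.561% for ftt-2 and 0.681% to 29.2% for par-5. Without replicate 2 the entry upstream of par-5 was not listed, and its strongest was the one in the M117.1 intron. The ftt-2 signal stayed above that of par-5, by 30.4 to 32.4 in the single lists, whose scale differs, against 64.2. For the entries that overlapped each peak most, the summits lay between -995 and -992 bp from the start for the nearer cmd-1 peak. For ftt-2 they lay between -782 and -662 bp. Replicate 1's other entries there, at -777 bp for cmd-1 (signal 54.1) and at -552 bp for ftt-2 (69.7), are not in these ranges.

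The share of all genes with a peak was 1.64% within 2 kb, 4.41% within 10 kb, 11.2% at an IDR of 0.05, 0.531% at 0.001 and 2.09% in the pooled list. Peaks near the 3 genes numbered 2 to 4 under these settings. The share with as strong an entry within 2 kb was 0.851% for cmd-1, whose linc-128 peak then falls outside, 0.17% for ftt-2 and 3.80% for par-5, and within 10 kb it was 0.461%, 0.466% and 10.2%. Listed genes with a peak numbered 1 within 2 kb, 10 at an IDR of 0.05 and 1 in the pooled list. No paired analysis was possible because the study has 1 group. Depth is unknown, and 2 replicates limit every comparison between peaks.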
